A study of Danio rerio with 96 samples.

Results

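The comparison described here sets zebrafish larvae that received folic acid (FA) and X-ray (XR) irradiation against untreated control (Cont) larvae at 84 h post-fertilization (hpf), 48 h after irradiation, and it shows which genes still differed from the untreated level in irradiated larvae that had been given FA. It rests on 12 of the 96 libraries, 6 of FA + XR and 6 of Cont, which were found through the table of library properties that gives each column of the count table its time point and group. Of the 25907 genes counted, 16127 averaged 2.5 counts or more across the 24 libraries of 84 hpf and were tested.

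In the study, whole single larvae were sequenced without any treatment (Cont), after 8 Gy of XR at 36 hpf (XR), with 200 μM FA added at 35 hpf (FA), or with both (FA + XR), and there were 6 libraries of each group at every time point. By the methods of the study, the FA and FA + XR larvae were kept in FA until they were sampled. All groups, Cont included, came from an albino line that carries the b4 allele of *slc45a2* on both chromosomes. Each group was kept in a well of its own, so that an effect of the well and that of the treatment cannot be told apart. The p values measure the spread between single larvae only. Because the whole body was sequenced, fewer cells of a type and less RNA per cell of that type cannot be told apart in any of the values given below.

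Ionizing radiation breaks DNA, and damaged cells answer with a transcriptional response, the DNA damage response, whose genes halt the cell cycle, start cell death or, like *mdm2*, dampen the response again. Between hatching and the start of feeding the zebrafish larva completes many tissues: the photoreceptors of the retina form their outer segments and begin to make opsins, neurons form synapses, and the exocrine pancreas begins to make digestive enzymes. FA is a vitamin of one-carbon metabolism, which supplies methyl groups and the building blocks of DNA.

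Total counts ran from 3672662 to 6021541 in the Cont libraries (median 4302473) and from 2368213 to 3857260 in the FA + XR libraries (median 3500028). Of the 24 libraries in the fit, 3 had under 50% of the median total, and these were 2 of FA and 1 of XR. Markers of muscle, heart, lens, photoreceptors, neurons, skin, red cells, liver, pancreas, gut and cartilage that were tested were all detected in each of the 12 libraries, as a whole larva should give. Symbols come from a table of gene IDs in which copies of a zebrafish gene can share 1 symbol in human style, and the ID is given where that was so.

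At an adjusted p below 10% (edgeR quasi-likelihood test, Benjamini-Hochberg), 309 genes differed between FA + XR and Cont, which is 1.92% of those tested. The larger share was lower in FA + XR, with 200 genes (1.24%) against 109 (0.676%) that were higher. The sizes were moderate, with a median log2 fold change of 0.88 for the higher and of -0.80 for the lower genes, and a change of more than 1 on the log2 scale in 43 and 74 genes. All 6 FA + XR libraries lay above all 6 Cont libraries in 55 of the 109 higher genes and below them in 120 of the 200 lower genes, and this held for 0.682% and 1.13% of all genes tested. The count of called genes moved with the libraries in the fit: it was 539 without the 3 libraries of low depth, 523 with only the 12 libraries compared, and 202 without FA + XR library 4. All 309 genes remained among those called in the fits with 539 and 523.

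**Figure D1:**
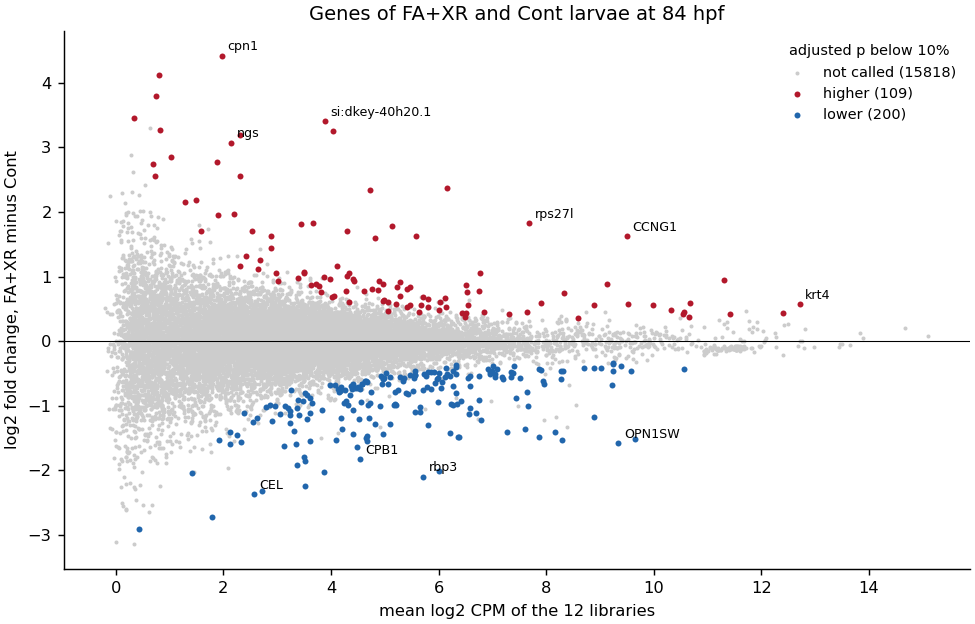
Each point is 1 of the 16127 genes tested, with the mean of the 12 libraries in log2 CPM, where CPM is a count scaled to a common library size, on the x axis and the log2 fold change of FA + XR minus Cont on the y axis; red and blue mark the 109 genes called higher and the 200 called lower. *rps27l* and *CCNG1* stand well above most genes of their level, and the opsin gene *OPN1SW* and the pancreatic enzymes (*CPB1*, *CEL*) lie among the falls.

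Several genes of the DNA damage response were higher in FA + XR. *CCNG1* (ENSDARG00000076667), which encodes cyclin G1, was at 389 CPM in the lowest, 409.9 in the median and 448 in the highest Cont library and at 1163, 1244 and 1452 CPM in FA + XR, a log2 fold change of 1.62 (SE 0.098, n = 6 per group, edgeR adjusted p = 9.35e-16). *mdm2*, a ubiquitin ligase gene, was at 11.7, 19.3 and 24.6 CPM in Cont and at 48.6, 65.2 and 85.9 CPM in FA + XR, a log2 fold change of 1.79 (SE 0.164, adjusted p = 2.37e-10). The groups did not overlap in either gene. An exact permutation test of 6 against 6 libraries then always gives its smallest possible two-sided p, 0.00216, so that it adds nothing to the lack of overlap.

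The same separation was seen in *rps27l*, a paralogue of a ribosomal protein gene, which had 88.9, 108 and 133 CPM in Cont and 316, 360.3 and 511 CPM in FA + XR (log2 fold change 1.82, SE 0.136, adjusted p = 8.34e-13). *PHLDA3*, whose product restrains Akt signalling, rose by 1.71 on the log2 scale (SE 0.190, adjusted p = 5.63e-08). *isg20*, an RNA exonuclease gene, rose by 1.63 (SE 0.142, adjusted p = 5.90e-11). Neither overlapped between the groups. Of the 36 tested genes in the list of the DNA damage response, 8 were called higher (22.2%, against 0.676% of all genes) and 1 lower, and the median log2 fold change of the list was 0.41, against 0.00 for all genes. The list includes genes that the study named from its 37 hpf libraries, which are of other larvae, and it was put together with earlier results of these data known, so that it is no independent choice.

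Further called members of the list were *casp8*, a caspase of the death receptor pathway (log2 fold change 1.07, SE 0.287, adjusted p = 0.0456), *sesn3*, a sestrin gene (0.63, SE 0.165, adjusted p = 0.0376), and *CCNG2*, a cyclin gene, which fell by 0.58 (SE 0.154, adjusted p = 0.0454). These 3 and *cdkn1a* were picked out after their values were seen, and *casp8* and *CCNG2* kept their calls in 7 of the 12 fits with 1 library left out and *sesn3* in 10. *cdkn1a*, the gene of the cell cycle inhibitor p21, missed the threshold (log2 fold change 2.88, SE 0.872, adjusted p = 0.101), with CPM of 0, 0.106 and 0.652 in Cont and of 0, 2.25 and 4.88 in FA + XR. It was at 0 in 3 Cont libraries and in 2 FA + XR libraries, so that its fitted fold change depends on few counts. It was called in 3 of the 12 fits with 1 library left out and under 5 of 7 other alternatives (adjusted p from 0.0387 to 0.284). Of the genes that the study named, *FOS* also missed the threshold (1.08, SE 0.349, adjusted p = 0.144), although its groups did not overlap. It was called in 0 of the 12 fits with 1 library left out and under 6 of 8 other alternatives (adjusted p from 0.00439 to 0.149). *GADD45A* has 2 IDs, of which ENSDARG00000043581 had a log2 fold change of 0.90 (SE 0.285, adjusted p = 0.131) and was called in 1 of the 12 fits and under 4 of 8 alternatives, and ENSDARG00000104571 had -0.40 (SE 0.280, adjusted p = 0.763) and was called in none of either. *pik3r3a*, a gene of a regulatory subunit of phosphoinositide 3-kinase, had 0.45 (SE 0.215, adjusted p = 0.498) and was likewise never called. Of other genes of the list, *BAX* (0.23, adjusted p = 0.79), *BTG2* (0.20, adjusted p = 0.81) and *SESN1* (-0.05, adjusted p = 0.98) were likewise not called, and these 3 too were chosen after their values were seen.

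**Figure D2:**
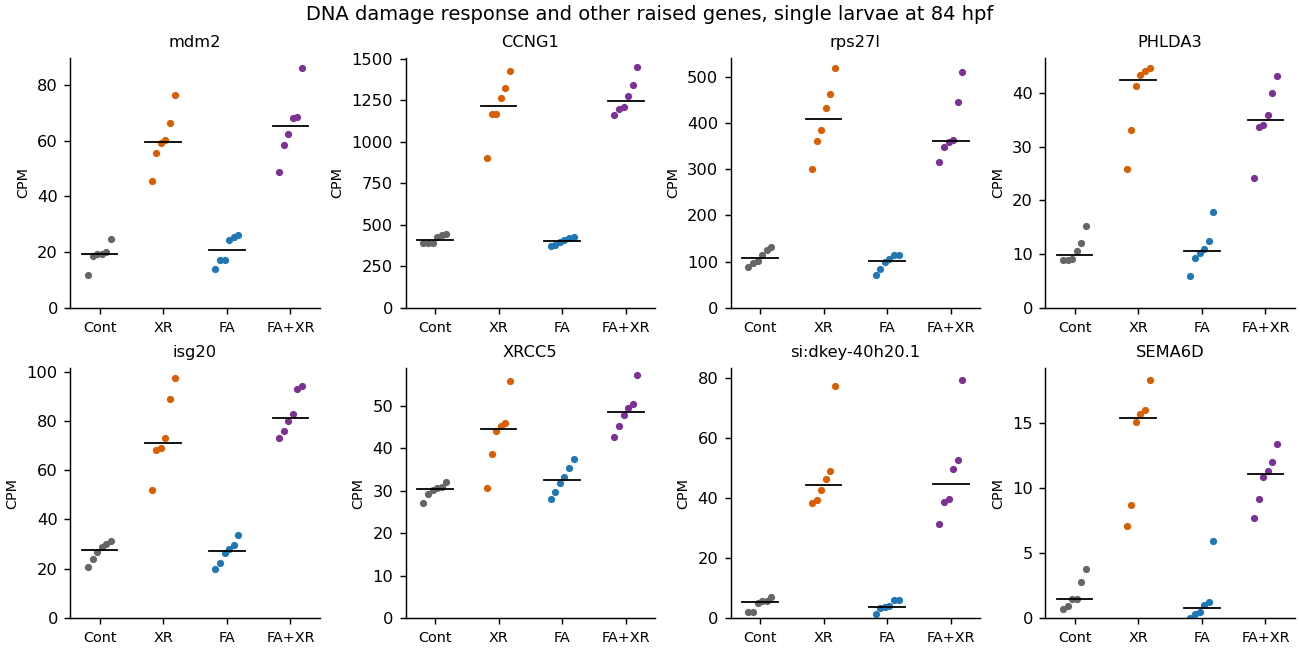
CPM of 8 genes in single larvae of the 4 groups at 84 hpf (each point 1 library, the line the median of 6). In each of the 8 genes the FA + XR larvae lie above all Cont larvae, as *CCNG1* with 1163 to 1452 CPM against 389 to 448 CPM shows.

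The largest rises were found in genes with low levels in Cont. *cpn1* (ENSDARG00000096720) had 0, 0.794 and 1.19 CPM in Cont, with 2 libraries at 0, and 9.40, 12.6 and 24.99 CPM in FA + XR, a log2 fold change of 4.42 (SE 0.513, adjusted p = 1.46e-07). The uncharacterized genes *si:dkey-40h20.1* and *si:dkey-85n7.7* rose by similar sizes. The former had 1.90, 5.27 and 7.04 CPM in Cont and 31.1, 44.7 and 79.3 CPM in FA + XR (log2 fold change 3.40, SE 0.264, adjusted p = 2.30e-12). The latter had 2.33, 5.34 and 8.55 CPM in Cont and 29.4, 48.6 and 82.1 CPM in FA + XR (3.25, SE 0.270, adjusted p = 1.48e-11). In neither gene did the groups overlap.

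*SEMA6D*, a semaphorin gene, rose by 2.56 on the log2 scale (SE 0.408, adjusted p = 8.35e-05) and *si:ch73-56d11.5* by 2.34 (SE 0.189, adjusted p = 6.19e-12). *bmb*, known in zebrafish for the fusion of nuclei in early embryos, rose by 3.19 (SE 0.473, adjusted p = 2.12e-05). The remaining large rises were in genes near the limit of detection, *vtg7*, a vitellogenin gene (log2 fold change 4.12, SE 0.817, adjusted p = 0.00194), *jac9* (3.46, SE 0.890, adjusted p = 0.0340) and *MAPK10*, a gene of the JNK kinase family (2.55, SE 0.673, adjusted p = 0.0401). At least 1 Cont library was at 0 in each of them, and *jac9* was at 0 in 4. In larvae given FA without XR, the fitted differences from Cont were 3.64 in *vtg7* (adjusted p = 0.256) and 2.76 in *MAPK10* (adjusted p = 0.346), against 0.96 in *bmb* (adjusted p = 0.933) and -0.47 in *cpn1* (adjusted p = 0.978).

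The most numerous falls were in genes of photoreceptors. Light is caught by opsins, which activate the G protein transducin, and transducin activates the phosphodiesterase PDE6 in the outer segment. Of the 48 tested genes in the list of phototransduction and outer segments, 20 were called lower (41.7%, against 1.24% of all genes), none was called higher, and 44 had a log2 fold change below 0. The median of the list was -0.82. With DESeq2, 21 members were called lower and none higher, and 28 members had an unadjusted p below 0.05 in the main test.

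Opsin genes of cones fell: *OPN1SW*, of short wavelengths, by 1.58 on the log2 scale (SE 0.229, adjusted p = 1.70e-05), *opn1sw2*, of blue light, by 1.49 (SE 0.221, adjusted p = 2.12e-05), *opn1mw1*, of green light, by 1.4 (SE 0.243, adjusted p = 0.000318) and *opn1lw2*, of red light, by 1.18 (SE 0.164, adjusted p = 8.36e-06). *OPN1SW* (ENSDARG00000045677) had 663, 1279.7 and 1537 CPM in the lowest, median and highest Cont library and 170.1, 418 and 564 CPM in FA + XR. The groups did not overlap in any of these 4 opsin genes.

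Both photoreceptor types were represented among the transducin genes. *GNAT1*, the rod alpha subunit, had a log2 fold change of -1.55 (SE 0.226, adjusted p = 1.70e-05) and *GNAT2*, that of cones, of -1.13 (SE 0.234, adjusted p = 0.00373). *gnb3b*, a cone beta subunit, was at 215, 249 and 315 CPM in Cont and at 60.6, 98.3 and 138 CPM in FA + XR (-1.4, SE 0.187, adjusted p = 3.51e-06). The 2 IDs named *GNGT2*, cone gamma subunits, gave -1.12 (ENSDARG00000010680) and -1.52 (ENSDARG00000103543). The phosphodiesterase genes followed, with *PDE6B* of rods at -1.56 (SE 0.380, adjusted p = 0.0208), *PDE6C* of cones at -0.96 (SE 0.186, adjusted p = 0.00144) and the inhibitory subunit gene *pde6ha* at -1.35 (SE 0.258, adjusted p = 0.00116).

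Genes of an opsin kinase and of arrestins, whose products shut the light response off, were lower too. *grk1b*, an opsin kinase gene, had a log2 fold change of -1.60 (SE 0.307, adjusted p = 0.00130), the arrestin gene *sagb* of -1.10 (SE 0.161, adjusted p = 1.70e-05), and the 2 IDs of the cone arrestin *ARR3* of -1.01 (ENSDARG00000056511) and -1.30 (ENSDARG00000098475). *RCVRN* (ENSDARG00000019902), a recoverin gene outside the list, was at 149.5, 169.8 and 186 CPM in Cont and at 54.6, 73.96 and 101 CPM in FA + XR (-1.22, SE 0.155, adjusted p = 1.15e-06). Structural genes of the outer segment disc fell by 1.5 and 1.35 (2 IDs of *PRPH2*) and by 1.53 (*ROM1*). *rbp3*, whose product carries retinoids between photoreceptors and pigment epithelium, fell from 44.7, 118 and 185 CPM in Cont to 13.1, 28.4 and 35.8 CPM in FA + XR (-2.10, SE 0.261, adjusted p = 7.72e-07). The groups of *rbp3* and *RCVRN* did not overlap. *opn1sw2*, *opn1mw1*, *GNAT1*, *GNAT2*, *GNGT2*, *PDE6C*, *pde6ha*, *ROM1* and the second IDs of *ARR3* and *PRPH2* lie outside the rule for named genes and were chosen after their values were seen.

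In summed CPM, the list ran from 4222 to 7539 in Cont (median 6028) and from 1624 to 3453 in FA + XR (median 2679.6), without overlap. The sums were 1966 to 3669.7 in XR and 4068 to 6713 in FA. The 37 tested lens crystallin genes held 0 calls in either direction, against 1.92% of all genes, a share at which few calls would fall in so short a list. An unadjusted p below 0.05 was found in 6, and 1 was called lower by DESeq2 and 3 by DEGES. Of the 37, 25 lay below 0 and 12 above, and their median was -0.21. The difference between the lists was not tested.

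**Figure D3:**
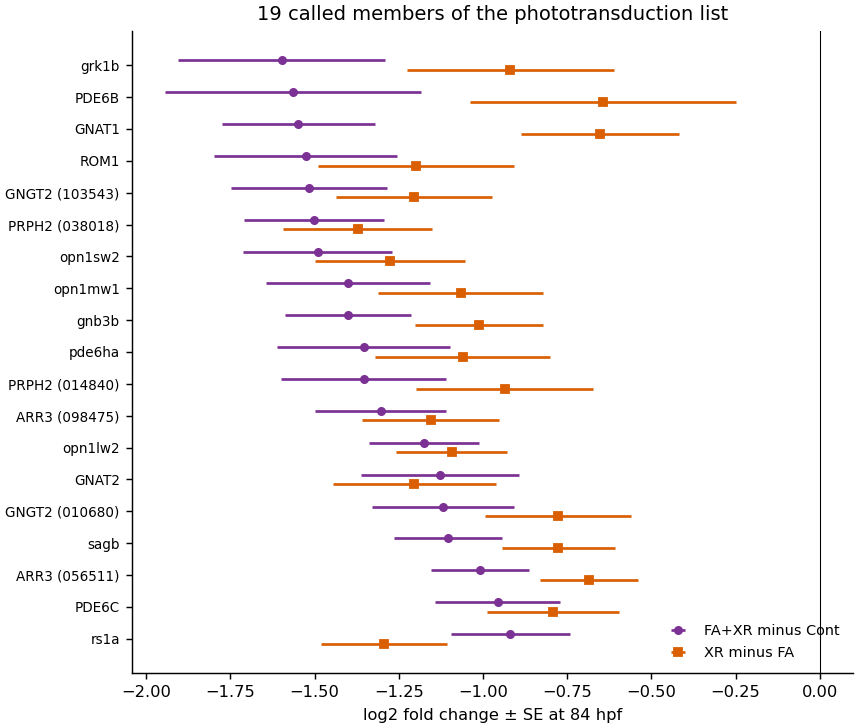
Log2 fold change ± SE (x axis) at 84 hpf of 19 of the 20 called members of the phototransduction list (y axis), in FA + XR minus Cont (circles) and in XR minus FA (squares), which share no library. All circles and squares lie below 0, and among the 19 members drawn the circles are between -1.60 and -0.92 and the squares between -1.37 and -0.64.

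Genes of mature neurons were lower as well, with smaller sizes. Of 36 tested members of the list, 8 were called lower (22.2%, against 1.24% of all genes) and 0 higher. In all, 33 lay below 0, and the median log2 fold change was -0.39. With DESeq2 11 were lower and 0 higher, and 22 had an unadjusted p below 0.05. *SNAP25* (ENSDARG00000058117), a vesicle fusion protein gene, was at 111, 123 and 136 CPM in Cont and at 58.02, 75.6 and 90.8 CPM in FA + XR (-0.70, SE 0.121, adjusted p = 0.000311), while the other ID of this symbol did not pass (-0.24, adjusted p = 0.557). *sypb*, a synaptophysin gene, fell by 0.93 (SE 0.166, adjusted p = 0.000464). The groups of these called genes did not overlap.

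*GRIN1* and *atp1a3a* were also called lower. *GRIN1*, a glutamate receptor subunit gene, had a log2 fold change of -0.71 (SE 0.142, adjusted p = 0.00230) and *atp1a3a*, a neuronal sodium pump gene, of -0.55 (SE 0.115, adjusted p = 0.00373). Among genes chosen after their values were seen, *NEUROD1*, a transcription factor of neurons and photoreceptors, fell by 0.97 (SE 0.136, adjusted p = 9.73e-06), *calb2b*, a calretinin gene, by 1.04 (SE 0.155, adjusted p = 2.12e-05), and *VSX1*, a factor of retinal bipolar cells, by 0.76 (SE 0.185, adjusted p = 0.0208). In the list of neural progenitors, 35 genes, 2 were called higher, *FABP7* (0.77, SE 0.190, adjusted p = 0.0235) and *CCND1*, cyclin D1 (0.49, SE 0.140, adjusted p = 0.0745), and 0 lower. The 2 calls were 5.71% of the list, against 0.676% of all genes. Most of the list went the other way, with 23 genes below 0, 12 above and a median log2 fold change of -0.19. With DESeq2 2 were higher and 0 lower, with DEGES 2 and 2, and without the libraries of low depth 2 and 1. An unadjusted p below 0.05 was found in 10. *CCND1* kept its call in 3 of the 12 fits with 1 library left out, with an adjusted p of up to 0.193.

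In the list of histones and other chromatin genes 2 of 27 members were called, both lower (7.41%, against 1.24% of all genes), and the median log2 fold change was -0.09. *STMN1*, a tubulin-binding protein gene of growing neurons kept in this list, was at 327, 383 and 424 CPM in Cont and at 240.3, 249 and 272 CPM in FA + XR (-0.58, SE 0.097, adjusted p = 0.000209). *hmga1b* had a log2 fold change of -0.75 (SE 0.158, adjusted p = 0.00395).

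The exocrine pancreas showed the largest median of all 36 lists, -1.39 over 25 genes, of which 24 were below 0. Of the 25, 6 passed the test, all lower (24%, against 1.24% of all genes), and 21 had an unadjusted p below 0.05. *CPB1*, a carboxypeptidase gene, was at 33.1, 42.4 and 63.1 CPM in Cont and at 3.73, 14.5 and 21.3 CPM in FA + XR, with no overlap (-1.83, SE 0.309, adjusted p = 0.000221). *CEL* (ENSDARG00000017490), a lipase gene, had 4.27, 14.3 and 23.1 CPM in Cont and 0.574, 2.76 and 4.57 CPM in FA + XR (-2.37, SE 0.595, adjusted p = 0.0278). The trypsin gene *prss59.1* spanned 51.3 to 281 CPM in Cont and 5.46 to 68.2 CPM in FA + XR (-2.02, SE 0.488, adjusted p = 0.0202), so that the highest FA + XR larva was above the lowest Cont larva.

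The elastase genes *ela2* (-2.24, SE 0.593, adjusted p = 0.0423) and *ela2l* (-2.02, SE 0.561, adjusted p = 0.0593) and the chymotrypsin gene *ctrb.1* (-1.48, SE 0.432, adjusted p = 0.0801) overlapped more, and each of the 3 missed the threshold with DESeq2. Larvae differed widely from each other in these enzymes. The summed CPM of the list spanned 803 to 2911 in Cont, 230.3 to 1065 in FA + XR, 489 to 2313 in XR and 485 to 3675 in FA. The medians were 1901 in Cont, 976 in FA + XR, 760 in XR and 828 in FA. In FA minus Cont the 6 called enzymes had log2 fold changes from -0.96 to -0.37, none of them called. The number of enzymes called was 17 without a filter on low counts and 3 without FA + XR library 2, 3 or 4 or Cont library 1 or 6, and it was 11 without Cont library 5.

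Keratins of the skin were higher. *krt4*, an epidermal keratin gene, was at 5183, 5575 and 5806 CPM in Cont and at 7092, 8316 and 9033 CPM in FA + XR, with no overlap (log2 fold change 0.57, SE 0.094, adjusted p = 0.000133). *cyt1* (0.44, SE 0.095, adjusted p = 0.00626) and *cyt1l* (0.43, SE 0.095, adjusted p = 0.00870), both type I keratins, did not overlap between the groups, and *krt91* (0.37, SE 0.097, adjusted p = 0.0376) did. These were the 4 calls (11.1%, against 0.676% of all genes) of 36 skin genes, of which 33 lay above 0, and the median was 0.23. The summed CPM of the list rose from 21056 to 23449.9 in Cont to 26039 to 32829.7 in FA + XR.

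Of 52 skeletal muscle genes 3 were called higher (5.77%, against 0.676% of all genes) and 0 lower. In all, 40 had values above 0 and the median was 0.20. *myhz1.2*, a fast myosin heavy chain gene, was at 788, 1166 and 1201 CPM in Cont and at 1367, 1497 and 1786 CPM in FA + XR (0.48, SE 0.115, adjusted p = 0.0186), without overlap. *ACTA1* (0.46, SE 0.127, adjusted p = 0.0572) and *smyhc1*, a slow myosin (0.46, SE 0.120, adjusted p = 0.0394), were called in 5 and 8 of the 12 fits with 1 library left out. The summed level of the list did not overlap between the groups (83168 to 95337 CPM in Cont, 96499 to 109933 CPM in FA + XR). The count of muscle genes called higher was 9 with RLE in place of TMM scaling. Without the 3 libraries of low depth, 12 were called higher and 1 lower. With DESeq2 11 were higher and 0 lower, with voom 11 and 1, and with DEGES 4 and 1. No alternative turned the direction of the 3 genes called in the main fit.

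**Figure D4:**
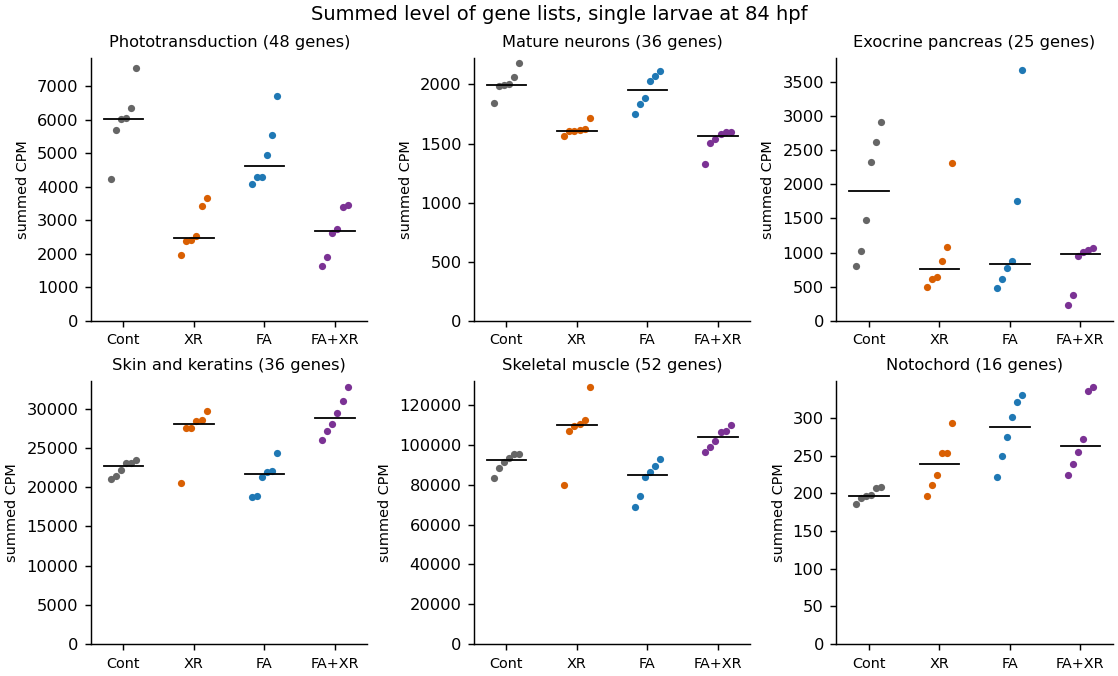
Summed CPM of 6 gene lists (y axis, from 0) in single larvae of the 4 groups at 84 hpf; each point is 1 library and the line the median of 6. FA + XR larvae lie below all Cont larvae in phototransduction (1624 to 3453 against 4222 to 7539) and mature neurons and above them in skin and muscle, while the groups overlap in exocrine pancreas.

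In the matrix, *MMP2*, a gelatinase gene, stood out with 59.3, 75.98 and 91.4 CPM in Cont and 128, 161 and 173 CPM in FA + XR (log2 fold change 1.06, SE 0.115, adjusted p = 3.09e-08), with no overlap. *SERPINH1*, the chaperone gene of collagen (0.53, SE 0.145, adjusted p = 0.0571), *P4HA1*, a prolyl hydroxylase gene of collagen (1.01, SE 0.266, adjusted p = 0.0401), and *POSTN*, periostin (0.36, SE 0.106, adjusted p = 0.0830), completed the 4 calls of 41 collagen and bone matrix genes, all higher (9.76%, against 0.676% of all genes). They were called in 7, 7 and 3 of the 12 fits with 1 library left out. The study examined the cartilage of the jaw by staining, in older larvae that were given a higher dose of FA than those sequenced. In the cartilage list, 2 of 35 genes were called, both higher (5.71%, against 0.676% of all genes), and the median was 0.12. These were *hapln1a*, a link protein gene (0.68, SE 0.148, adjusted p = 0.00666), and *MATN3*, a matrilin gene. The main cartilage collagen, *COL2A1*, was named after its values were seen and was not called in either ID (-0.01 and 0.11, adjusted p = 0.996 and 0.901).

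*MATN3* was also one of 3 called genes among 16 of the notochord, all higher (18.8%, against 0.676% of all genes), with *ngs* and *cmn*. *ngs*, notochord granular surface, had 0.285, 1.63 and 2.11 CPM in Cont and 2.06, 9.12 and 36.2 CPM in FA + XR (log2 fold change 3.07, SE 0.570, adjusted p = 0.000832), and the lowest FA + XR larva fell within the Cont range. *cmn*, calymmin of the notochord sheath, had 0, 1.22 and 2.11 CPM in Cont, with 1 library at 0, and 3.54, 7.3 and 20.104 CPM in FA + XR (2.77, SE 0.534, adjusted p = 0.00131), without overlap. *MATN3* had 5.78, 6.98 and 8.26 CPM in Cont and 7.34, 26.1 and 45.1 CPM in FA + XR (1.83, SE 0.328, adjusted p = 0.000516).

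In larvae given FA alone the medians were 12.7 CPM for *ngs*, 10.4 for *cmn* and 39.8 for *MATN3*, and the log2 fold changes against Cont were 3.13 (adjusted p = 0.0164), 3.25 (adjusted p = 0.00291) and 2.5 (adjusted p = 4.39e-05). These 3 and *zgc:113232*, chosen after its values were seen (4.46 in FA, adjusted p = 0.0247, and 3.79 in FA + XR, adjusted p = 0.0107), were the only 4 genes called in FA against Cont (0.0248% of genes), and each was also called in FA + XR against Cont, which shares the Cont libraries. In XR the medians were 3.82, 3.51 and 13.1 CPM for *ngs*, *cmn* and *MATN3*, and of the 3, *MATN3* differed between XR and FA (-1.36, SE 0.320, adjusted p = 0.0227). Single larvae differed several-fold in these genes within XR, FA and FA + XR.

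Genes of lipid transport, complement and phagocytes gave smaller groups of rises. Of 20 apolipoprotein genes 4 were called, all higher (20%, against 0.676% of all genes), while 10 lay above and 10 below 0. *apoeb*, an apolipoprotein E gene also expressed by microglia, was at 342, 403 and 552 CPM in Cont and at 576, 758 and 977 CPM in FA + XR (0.89, SE 0.152, adjusted p = 0.000271). *apoea* (0.57, SE 0.111, adjusted p = 0.00138) and *apobb.1*, an apolipoprotein B gene (0.56, SE 0.108, adjusted p = 0.00123), did not overlap between the groups either. *apoa4a* had 10.96, 13.9 and 25.95 CPM in Cont and 23.1, 28.3 and 38.01 CPM in FA + XR (0.96, SE 0.214, adjusted p = 0.00830), with overlap through 1 high Cont larva. It spanned 14.96 to 40.9 CPM in FA, where it was not called against Cont, and 14.2 to 26.2 CPM in XR.

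Of 28 complement and acute phase genes 3 were called higher, *c9* (0.87, SE 0.158, adjusted p = 0.000626), *cfb* (0.91, SE 0.234, adjusted p = 0.0340) and *c3a.1* (0.76, SE 0.185, adjusted p = 0.0215), and *LECT2*, a chemotactic factor gene, was called lower (-0.82, SE 0.229, adjusted p = 0.0613). Thus 10.7% of this list were called higher and 3.57% lower, against 0.676% and 1.24% of all genes. *LECT2* kept its call in 6 of the 12 fits with 1 library left out. Of 40 phagocyte genes 3 were called higher (7.5%, against 0.676% of all genes). Beside *apoeb* these were *cxcl18b*, a chemokine gene (1.95, SE 0.442, adjusted p = 0.00986), and *lgals9l1*, a galectin gene (1.16, SE 0.338, adjusted p = 0.0796), which was called in 4 of the 12 fits with 1 library left out. The macrophage marker *MPEG1* did not differ beyond the spread in its 2 tested IDs (0.35 and 0.60, adjusted p = 0.919 and 0.871) and was named after its values were seen. The summed level of the phagocyte list ran from 889 to 1116 CPM in Cont and from 1150.4 to 1623 CPM in FA + XR. This sum includes *apoeb*, which alone ran from 342 to 552 CPM in Cont and from 576 to 977 CPM in FA + XR. Most of the rise of the sum was thus that of *apoeb*. Of the 40 genes 29 lay above 0 and 11 below, with a median log2 fold change of 0.19. The part of phagocytes in these rises was not tested. Of 44 liver genes *CP*, ceruloplasmin, rose (0.84, SE 0.175, adjusted p = 0.00361), and *serpina1*, an antiprotease (-0.62, SE 0.113, adjusted p = 0.000587), and *agt*, angiotensinogen (-1.004, SE 0.231, adjusted p = 0.0119), fell. These calls were 2.27% of the liver list higher and 4.55% lower, against 0.676% and 1.24% of all genes.

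Few genes of division, repair and antioxidant defence were called, and lists of their size would hold few calls at the 1.92% of all genes called. Of 50 DNA replication genes 0 were called (1 at an unadjusted p below 0.05, and 1 higher by DESeq2), with 35 above 0, 15 below and a median of 0.12. Of 47 mitosis genes 0 were called (1 at an unadjusted p below 0.05, and 0 by DESeq2), with 27 above 0, 20 below and a median of 0.05. Of 38 DNA repair genes 1 was called, higher (2.63%, against 0.676% of all genes). This was *XRCC5*, which encodes a Ku subunit of end joining, with 27.06, 30.5 and 32.2 CPM in Cont and 42.6, 48.7 and 57.4 CPM in FA + XR, without overlap (0.70, SE 0.133, adjusted p = 0.00104). Of 39 antioxidant genes 0 were called (3 at an unadjusted p below 0.05, and 0 by DESeq2), with 20 above 0, 19 below and a median of 0.02. The 77 cytosolic ribosomal protein genes held 1 call, *RPL22L1* (-0.38, SE 0.102, adjusted p = 0.0442), which is 1.3% lower, against 1.24% of all genes. Yet 75 of them lay below 0 with a median of -0.11. The median of these genes was -0.18 in FA against Cont and -0.12 in XR against Cont. These medians all share the Cont libraries. In XR minus FA, which uses none of them, the median was 0.06.

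For the genes that the study singled out as disturbed by XR and restored by FA, the level in FA + XR was set against Cont directly. *MAT1A*, a methionine adenosyltransferase gene, had 71.5, 79.1 and 93.7 CPM in Cont, 84.2, 100.3 and 113 CPM in FA + XR and 44.9, 61.5 and 69.7 CPM in XR. The groups FA + XR and Cont overlapped, and the difference of 0.28 on the log2 scale (SE 0.122) did not pass the test (adjusted p = 0.396). In the fit used here it was the only gene called between FA + XR and XR (0.0062% of genes), at 0.76 (SE 0.126, adjusted p = 0.00527). The study, which used TCC, called more genes between these groups at 84 hpf, with *FKBP5*, *ponzr3* and a copy of *PTGES3* among them. *FKBP5*, a co-chaperone gene of steroid receptors, had 4.44, 11.7 and 25.95 CPM in Cont and 5.32, 11.9 and 16.98 CPM in FA + XR, a difference of -0.07 (SE 0.375, adjusted p = 0.984). In XR it spanned 0.990 to 8.28 CPM.

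*ponzr3* spanned 7.66 to 63.8 CPM in Cont and 12.8 to 83.6 CPM in FA + XR (0.73, SE 0.430, adjusted p = 0.664), and 3.39 to 16.3 CPM in XR. *PTGES3*, a co-chaperone of Hsp90, differed by 0.34 (ENSDARG00000037284, SE 0.255, adjusted p = 0.788) and 0.33 (ENSDARG00000089626, SE 0.162, adjusted p = 0.530) in its 2 IDs. In XR these IDs spanned 11.1 to 21.3 and 38.6 to 63.4 CPM. *hsp90aa1.1* was called higher in FA + XR than in Cont, just under the threshold (0.60, SE 0.181, adjusted p = 0.0999). It kept this call in 3 of the 12 fits with 1 library left out. The study singled out *hsp90aa1.1* and *apoa4a*, given above, at an earlier time point than that compared here. Their differences from Cont at the later time therefore do not test that finding. For *MAT1A*, *FKBP5*, *ponzr3* and *PTGES3*, a p that misses the threshold does not show that the levels were equal. In one-carbon metabolism, the pathway of FA, 2 of 41 genes were called higher (4.88%, against 0.676% of all genes), *BHMT*, which uses betaine to remethylate homocysteine (0.42, SE 0.118, adjusted p = 0.0646), and *cbsb*, a cystathionine beta-synthase gene (0.60, SE 0.179, adjusted p = 0.0878). They were called in 6 and 3 of the 12 fits with 1 library left out.

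Larvae outside the 12 give values of the called genes that did not choose them. XR and FA larvae share no library with FA + XR or Cont, although the same model was fitted to all, and the 3 libraries of low depth are among them. In XR minus FA at 84 hpf, 197 genes were called (1.22%), 0.558% of genes higher and 0.663% lower in XR, and of the 109 genes higher in FA + XR, 92 (84.4%) were higher in XR than in FA and 36 were called so, with 1, *MATN3*, called in the opposite direction. Of the 200 lower genes 186 (93%) were lower and 61 were called lower. Over all genes 56.38% had the same sign in the 2 comparisons. *CCNG1* differed by 1.59 in XR minus FA (adjusted p = 2.43e-15), *rps27l* by 2.06 (adjusted p = 4.54e-14), *rbp3* by -1.25 (adjusted p = 0.00970) and *opn1lw2* by -1.09 (adjusted p = 5.75e-05). *CPB1*, at -0.45 (adjusted p = 0.731), did not pass. Of the 20 called phototransduction genes 16 were called lower there. The 6 called pancreas genes ran from -0.89 to 0.38 there, with a median of -0.69, and all had an adjusted p of at least 0.611. Without the libraries of low depth, 114 in place of 97 of the 309 genes were called in the same direction.

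Given side by side, the 109 higher genes had a median log2 fold change of 0.68 in XR minus Cont, 0.15 in FA minus Cont and 0.13 in FA + XR minus XR, and the 200 lower genes had medians of -0.64, -0.19 and -0.10. These comparisons share the Cont or the FA + XR libraries with the one that chose the genes. Over all genes 1.69% were called in XR against Cont (0.546% higher, 1.15% lower) and 1.04% in FA + XR against FA (0.49% higher, 0.546% lower). *CCNG1* had 1.55 in XR minus Cont and 0.08 in FA + XR minus XR, *gnb3b* had -1.33 and -0.07, and *CPB1* had -1.25 and -0.58.

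At 60 hpf, 24 h after irradiation and in other larvae, 45 genes were called between FA + XR and Cont (0.276%, with 0.178% higher and 0.098% lower), where 2 of the Cont libraries were of low depth. Of the 107 higher genes tested at that time 90 (84.11%) had the same sign and 19 were called higher, and of 195 lower genes 168 (86.15%) had the same sign and 1 was called lower, against 56.58% of the same sign over all genes. Of the genes of the DNA damage response, *CCNG1* was already raised, at 1.64 (adjusted p = 5.17e-09), and so was *mdm2*, at 1.86 (adjusted p = 8.47e-10). Outside that list, *si:dkey-40h20.1* was at 4.16 (adjusted p = 3.55e-11) and *cpn1*, a carboxypeptidase gene, at 3.82 (adjusted p = 2.37e-09). Photoreceptor genes had values below 0 that did not pass, such as *gnb3b* with -1.30 (adjusted p = 0.982) and *OPN1SW* with -1.10 (adjusted p = 0.763).

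At 37 hpf, 1 h after irradiation, 14 genes were called (0.0974%, with 0.0765% higher and 0.0209% lower), among them 6 of the 105 higher genes tested there and none of the 170 lower genes, which were of the same sign in 59.05% and 58.82% of cases (51.06% over all genes). The called ones included *PHLDA3* (2.04, adjusted p = 0.00132), *mdm2* (1.56, adjusted p = 0.000373), *isg20* (1.4, adjusted p = 0.00134) and *rps27l* (1.06, adjusted p = 0.0141). Total counts at 37 hpf were as low as 243126 in FA + XR and 648296 in Cont, against a median of 3239915.5 over all groups. Such depth limits what could be called there. *CCNG1* was at 0.44 (adjusted p = 1.00).

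The difference between 84 and 60 hpf was tested itself, in a fit of both times that was added after the data were seen, and 11 genes were called (0.0662%). *ngs* differed by 3.08 (SE 0.544, adjusted p = 0.00769), *MATN3* by 2.03 (SE 0.351, adjusted p = 0.00769) and *cmn* by 2.53 (SE 0.537, adjusted p = 0.0632), from values near 0 at 60 hpf (0.01, -0.19 and 0.25). *MAT1A* went from -0.86 at 60 hpf to 0.28 at 84 hpf, a difference of 1.15 (SE 0.193, adjusted p = 0.00769), and *apoa4a* from -0.51 to 0.96, a difference of 1.48 (SE 0.315, adjusted p = 0.0632). *GNG11*, a G protein gamma subunit gene, was 0.00 at 60 hpf and -1.48 at 84 hpf (SE 0.184, adjusted p = 7.60e-07), a difference of -1.46 (SE 0.323, adjusted p = 0.0854). No such change was called for *CCNG1* (-0.02, adjusted p = 0.999), *mdm2* (-0.07, adjusted p = 0.999) or *gnb3b* (-0.19, adjusted p = 0.999).

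**Figure D5:**
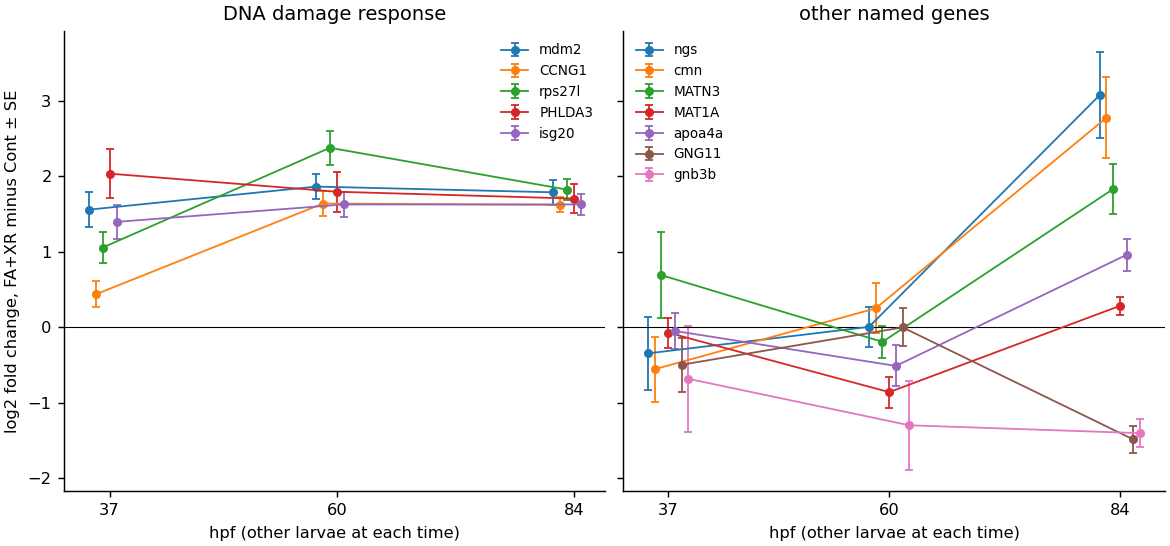
Log2 fold change ± SE of FA + XR minus Cont (y axis) at 37, 60 and 84 hpf (x axis, other larvae at each time). On the left, *mdm2*, *PHLDA3*, *isg20* and *rps27l* are above 0 at all 3 times and *CCNG1* reaches 1.64 at 60 hpf; on the right, *ngs*, *cmn* and *MATN3* lie near 0 at 60 hpf and at 3.07, 2.77 and 1.83 at 84 hpf.

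Many genes that were lower in FA + XR rise with age. In FA larvae, which are in neither compared group, 98 of the 200 lower genes were called higher at 84 than at 60 hpf and 9 were called lower, with a median log2 difference of 0.90. Over all 15796 genes shared by the tests 686 were called higher and 969 called lower, with a median of 0.07. Over all 16113 genes tested for age in FA larvae, 687 (4.26%) were called higher and 976 (6.06%) called lower. The FA libraries include 2 of low depth at 84 hpf and 1 at 60 hpf. Of the 104 higher genes tested, 33 were called lower at 84 than at 60 hpf and 2 were called higher, with a median of -0.43. *OPN1SW* rose by 5.53 with age in FA larvae (adjusted p = 3.89e-12), *gnb3b* by 5.51 (adjusted p = 2.25e-12), *CPB1* by 3.66 (adjusted p = 1.02e-06) and *GRIN1* by 2.12 (adjusted p = 3.68e-05), and *cyt1* fell by 1.62 (adjusted p = 0.000235). *CCNG1* fell by 0.92 with age (adjusted p = 0.00584), and *mdm2* was not called there (-0.07, adjusted p = 0.927). Whether the differences from Cont reflect the stage reached was not tested.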

How the data were processed

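The authors sequenced whole single larvae on an Illumina HiSeq instrument with paired ends. Transcript abundance was estimated on the Ensembl cDNA sequences of zebrafish with a quantifier not given in the sources used here, and the authors deposited estimated counts for each gene, not normalized. Fractions occurred in 3 values, which were rounded. Columns were matched by name to the authors' table of library properties, and all 96 columns were assigned. Library numbers only name libraries within a group.

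The 24 libraries of 84 hpf were fitted together with edgeR 4.0.16 (R 4.3.3, TMM, quasi-likelihood F test), as were those of 60 and of 37 hpf. The minimum mean count of 2.5 and the threshold of 10% follow the methods of the study, which used TCC. The SE is the size of the log2 fold change divided by the square root of F. CPM use TMM factors. For single genes all 924 assignments of 6 against 6 libraries were enumerated. Alternatives were DESeq2 1.42.0, voom with quality weights (limma 3.58.1), DEGES with 3 rounds, RLE scaling, other filters, fewer libraries, a threshold of 5% and leaving out each library. The difference between 84 and 60 hpf was added after the data were seen. Tests were checked on simulated counts. Figures were drawn with Python 3.11.15.

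Members, the 36 gene lists and tests were chosen with earlier results of these data known. Named genes are those the study names, the 12 largest rises and falls without overlap, the 5 smallest p in each direction and up to 6 called members of each list by p, and others are marked as chosen after their values were seen. A planned search of promoters for motifs was not run, since no sequence of the build was used here. Some genes that meet the rule are not reported here.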

Additional observations from a re-analysis of the deposited data

Results flagged for a closer look

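The gap of the highest or lowest library to its neighbour was screened in 296 sets of 6 libraries, and 21 had a library apart, where chance flags about 1 in 20, or 14.8. In Cont, library 5 was low in *ngs* (-0.21 log2 CPM, others 1.01 to 1.43), *CCND1* (5.32), *myhz1.2* (9.62), *hmga1b* (5.56), *PDE6C* (4.53), *ROM1* (4.21) and *scpp9* (1.51, others 4.91 to 5.599), and high in *ACTA1* (10.57) and *POSTN* (8.63). Cont library 3 was low in *cmn* (-0.79, a count of 0), *sypa* (6.83) and *glis3* (1.92) and high in *apoa4a* (4.73, others 3.53 to 3.95), library 2 was low in *cxcl18b* (-0.79, a count of 0) and *G6PC1* (5.04), and library 1 was high in *smyhc1* (7.83). In FA + XR, library 1 was low in *pik3r3a* (4.07), library 2 high in *POSTN* (9.09), library 4 high in *ptmaa* (9.52), library 3 high in *SLC1A2* (6.05) and library 6 low in *radil2a* (4.40, others 5.46 to 5.95).

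The effect at 84 hpf differed from that at 60 hpf, by a test of the difference, in *ngs* (3.08), *cmn* (2.53), *MATN3* (2.03), *apoa4a* (1.48), *MAT1A* (1.15) and *GNG11* (-1.46), as given above. The same test called *ponzr3* (2.59, SE 0.575, adjusted p = 0.0854), which was at -1.85 at 60 hpf (adjusted p = 0.0563), *crygmxl1*, a crystallin gene (-1.98, SE 0.432, adjusted p = 0.0794), and *scpp5* (3.70, SE 0.663, adjusted p = 0.00769), a gene of mineralizing tissue in fish, which was at -3.48 at 60 hpf (adjusted p = 0.000905) and at 0.17 at 84 hpf (adjusted p = 0.947). *CEL* was called too (-5.68, SE 1.2, adjusted p = 0.0632), but it did not pass the count filter at 60 hpf, so that this difference rests on few counts. *crygmxl1*, *scpp5*, *scpp9*, *sypa*, *ptmaa*, *PDE6C*, *ROM1* and *G6PC1* were named after their values were seen.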

How the results depend on the processing

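No named gene reversed a call under any alternative run, and of the 86 genes named by rule and called, 61 stayed called with each library left out in turn and 78 under all 8 other alternatives. The 309 calls (109 higher, 200 lower) became 523 (202, 321) with the 12 libraries only, 609 (214, 395) with DEGES, 539 (217, 322) without low-depth libraries and 577 (228, 349) with voom and quality weights; DESeq2 called 449 (187 higher). The cause was not tested. Leaving out 1 library gave 202 to 313 calls, 68 to 111 higher and 134 to 202 lower. The pancreas count of 6 was 17 without a filter and 3 to 11 with 1 library left out. A threshold of 5% left 216 calls. RLE scaling moved the median of all genes to 0.01 and gave 341 calls. The share of called genes with the same sign was 89.97% in XR minus FA and 90.94% there without low-depth libraries, and 85.43% and 86.09% at 60 hpf. No paired analysis was possible because the columns carry no replicate number. Depth limits genes of under about 1 CPM, where single libraries at a count of 0 set the fold change. The search of promoters was not run.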
